A study of Homo sapiens with 16 samples.

Results

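Amino acids cross the plasma membrane through solute carrier (SLC) proteins, and the genes described here are 10 carriers set beside SLC6A20: SLC6A20 itself, SLC6A14, SLC1A4, SLC1A5, SLC3A2, SLC7A5, SLC7A6, SLC7A11, SLC38A1 and SLC38A2. They were matched by symbol to the 54127 gene identifiers of the deposited count files, and 9 of the 10 were found. For SLC6A14, a carrier of neutral and cationic amino acids, the identifier paired with the symbol had no row, and the gene was not analysed here. SLC6A20 was chosen by its measured values, because it had one of the largest differences in response between the cell lines, so its levels are given as a description with no test. The other 8 were selected on function, as amino acid carriers.

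The 16 libraries came from a pair of established lines of human colorectal cancer, HT55 and SW948, which the study counted among those responsive to itraconazole. Cells were grown attached to plastic and given itraconazole at 5 µM, a commonly used antifungal drug, or DMSO as the solvent control, and were lysed for RNA on day 6. Each of the 4 groups (HT55 DMSO, HT55 itraconazole, SW948 DMSO and SW948 itraconazole) had 4 replicates, which the study described as biological. There was 1 dose and 1 time, and the comparisons between HT55 and SW948 are of these lines alone.

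Cells take up amino acids by a few kinds of carrier. Exchangers such as SLC1A5, which needs sodium, and SLC7A5 swap one amino acid for another across the membrane. SLC38A1, SLC38A2 and SLC6A20 use the sodium gradient to bring amino acids in without such a swap. SLC7A5, SLC7A6 and SLC7A11 are light chains that carry out the exchange and reach the cell surface bound to a common heavy chain, SLC3A2 (CD98, 4F2hc). SLC7A11 with SLC3A2 forms the cystine and glutamate exchanger, which supplies cysteine for glutathione. Many of these genes are known targets of ATF4, a transcription factor made when amino acids run short, and SLC7A11 is also a known target of NRF2, a factor of the oxidative stress response.

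Gene counts per library ran from 8269406 to 11110814, and 22.0% to 27.9% of the entries tallied in a file were alignments at several places, which were counted in no gene. Levels are given as CPM, the counts per 1e+06 gene counts after scaling the 16 libraries by the trimmed mean of M values (TMM). The colon epithelium markers (10 genes) summed to between 6729 and 12650 CPM in every library, with none at 0, and the fibroblast markers to at most 12.0 CPM. The 6 leukocyte markers summed to between 23.9 and 366.8 CPM. LYZ and CD68, which other cells also express, made up nearly all of that sum, and both moved with treatment in SW948. There LYZ averaged 318.3 CPM in controls and 109.6 CPM in treated libraries, a log2 difference of -1.57 (edgeR adjusted p = 1.1e-09), and CD68 averaged 20.6 and 110.5 CPM, a difference of 2.39 (edgeR adjusted p = 2.02e-10). PTPRC, CD3E and CD14 had at most 14 counts in a group, with CD3E at 0 in all 4 groups. What part any of these cells had in the results was not tested. A gene was called when its adjusted p in the quasi-likelihood test of edgeR was under 0.05, and called genes were common, so counts of called genes are to be read against the share of all genes called, given below for each comparison. The RNA is from whole cultures, so fewer cells with a transcript and less of it per cell cannot be told apart.

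The stretch before the transcription start is printed for the heavy chain, for SLC7A5 and SLC7A6, and for SLC6A20. SLC7A5 and SLC7A6 are the light chains among the members that fell in SW948. The printed genes were the members whose responses differed most between the lines, and ATF4 and NRF2 act through short motifs near starts. Each run is the 250 bases before a start in RefSeq on build GRCh38.p14, 5′ to 3′ on the strand of the gene, and capitals mark a match to one of the 3 motifs searched that lies wholly before the start.
SLC3A2 (chr11:62881449-62881698, plus strand, the third of 3 RefSeq starts): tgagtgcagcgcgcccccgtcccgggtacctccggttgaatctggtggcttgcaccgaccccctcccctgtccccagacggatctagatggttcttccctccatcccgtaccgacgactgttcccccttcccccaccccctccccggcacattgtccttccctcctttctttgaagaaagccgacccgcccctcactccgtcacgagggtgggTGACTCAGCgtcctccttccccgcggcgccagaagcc
SLC7A5 (chr16:87869508-87869757, minus strand): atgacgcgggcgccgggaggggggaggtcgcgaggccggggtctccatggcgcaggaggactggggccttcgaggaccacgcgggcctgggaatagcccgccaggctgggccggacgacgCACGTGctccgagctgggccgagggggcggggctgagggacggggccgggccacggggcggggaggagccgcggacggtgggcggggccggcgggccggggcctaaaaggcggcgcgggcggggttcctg
SLC7A6 (chr16:68264276-68264525, plus strand): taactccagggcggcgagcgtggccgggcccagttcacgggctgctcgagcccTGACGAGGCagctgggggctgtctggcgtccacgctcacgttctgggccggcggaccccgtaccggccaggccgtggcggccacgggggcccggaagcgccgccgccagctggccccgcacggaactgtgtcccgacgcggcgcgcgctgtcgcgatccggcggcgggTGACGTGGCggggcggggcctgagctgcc
SLC6A20 (chr3:45796537-45796786, minus strand): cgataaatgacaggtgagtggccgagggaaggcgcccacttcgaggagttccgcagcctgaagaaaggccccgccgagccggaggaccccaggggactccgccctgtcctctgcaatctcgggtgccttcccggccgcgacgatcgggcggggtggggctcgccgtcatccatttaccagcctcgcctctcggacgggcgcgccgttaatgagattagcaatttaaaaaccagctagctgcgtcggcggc

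The motifs were TGATGNAA, bound by ATF4 with C/EBP, TGACNNNGC, bound by NRF2, and CACGTG, the E-box, each searched on both strands of windows that run from 250 bases before a start to 50 after it. RefSeq windows were found for 8 carriers (14 windows), and SLC7A11 had no entry. The SLC3A2 stretch above held TGACTCAGC, a match to the NRF2 motif, from -37 to -29, and the same window held a TGATGNAA match on the other strand at 38 to 45 after the start. The first and second SLC3A2 windows held no match to the 3 motifs, so the start printed is the one with matches. SLC7A6 held 2 matches to the NRF2 motif, and SLC7A5 held the E-box and an NRF2 motif match that spans its start. The SLC6A20 window held no match to the 3 motifs. TGATGNAA was in a window of SLC1A4, SLC1A5, SLC3A2 and SLC38A1, the NRF2 motif in one of SLC1A5, SLC3A2, SLC7A5 and SLC7A6, and the E-box in one of SLC1A5 and SLC7A5. Counted by window, 4 of the 14 carrier windows held TGATGNAA, 4 held TGACNNNGC and 2 held CACGTG. Of all 35116 RefSeq windows of the same length, 3.62% held TGATGNAA, 13.3% held TGACNNNGC and 7.26% held CACGTG. A match is a run of letters and not evidence of binding.

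**Figure D1:**
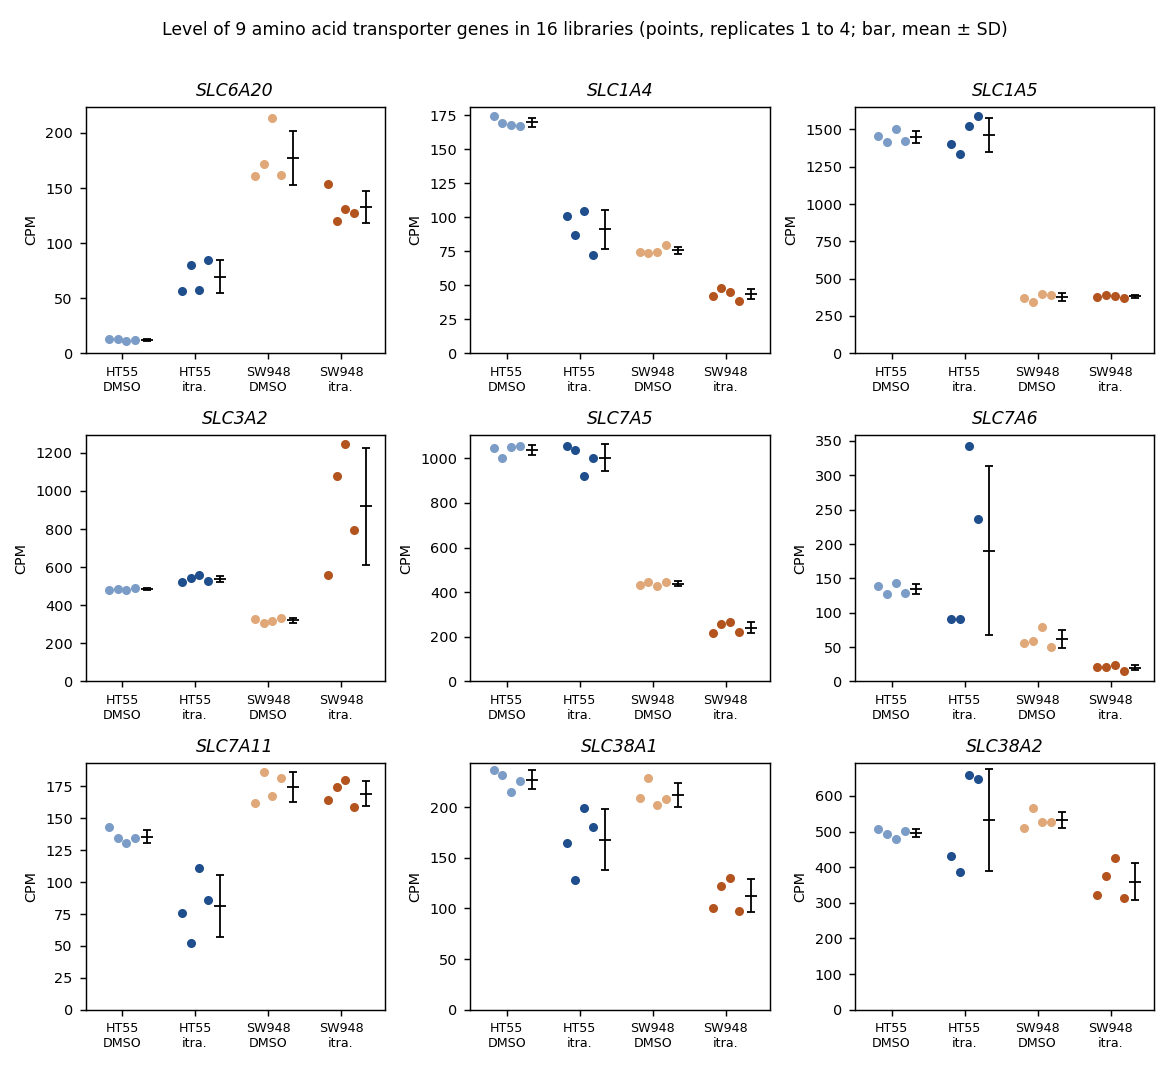
Level of each carrier in CPM (linear axis from 0) in the 4 libraries of each group, with points for replicates 1 to 4 from left to right and a bar for the mean ± SD. SLC6A20 rose from about 12.1 to 69.7 CPM in HT55, SLC3A2 rose in SW948 with widely spread libraries, and SLC7A6 split into 2 low and 2 high libraries in treated HT55.

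SLC6A20 (ENSG00000163817, GRCh37 chromosome 3, 45796941 to 45838066, minus strand, protein coding) carries proline and other imino acids with sodium and chloride. Its level in the HT55 DMSO libraries was 12.6, 13.0, 11.04 and 11.6 CPM, and in the HT55 itraconazole libraries 56.2, 80.0, 57.4 and 85.1 CPM. In SW948 it was 161.2, 171.9, 213.9 and 162.0 CPM with DMSO and 153.3, 120.2, 130.8 and 127.4 CPM with itraconazole. The groups did not overlap and stood in the order HT55 DMSO, HT55 itraconazole, SW948 itraconazole and SW948 DMSO, a pattern that the choice of this gene used. The means were 12.1 ± 0.878, 69.7 ± 15.1, 132.9 ± 14.3 and 177.2 ± 24.9 CPM in that order (SD, n = 4). The log2 difference with itraconazole was 2.52 in HT55, a 5.75-fold higher level, and -0.45 in SW948. The lines differed by 3.88 on the log2 scale with DMSO, with SW948 14.7-fold above HT55, and by 0.94 with itraconazole. Replicate 3 of the SW948 controls was the highest library of all, and with any one library left out the SW948 difference ran from -0.51 to -0.35, while with plain library totals in place of TMM it was -0.77.

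By a likeness measured over 16 libraries, the root mean square difference of log2 CPM after centring each gene on its own mean, the 5 of 11212 genes most like SLC6A20 were THSD4, PTPRR, SOAT1, GULP1 and TRIM31, at distances from 0.407 to 0.483. SOAT1, which esterifies cholesterol, had mean levels of 2.55, 8.21, 18.5 and 16.8 CPM in HT55 DMSO, HT55 itraconazole, SW948 DMSO and SW948 itraconazole. TRIM31, a ubiquitin ligase, went 20.2, 74.3, 349.5 and 221.4 CPM in the same order. THSD4, at 7.40, 41.1, 62.2 and 65.1 CPM, was the nearest and was not lower in treated SW948 than in its controls. Nor were PTPRR, with SW948 means of 10.93 CPM with DMSO and 12.18 CPM with itraconazole, and GULP1, with 34.85 and 51.09 CPM. Only SOAT1 and TRIM31 of the 5 had a lower mean in treated SW948, as SLC6A20 had. None of the 5 is an amino acid carrier.

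**Figure D2:**
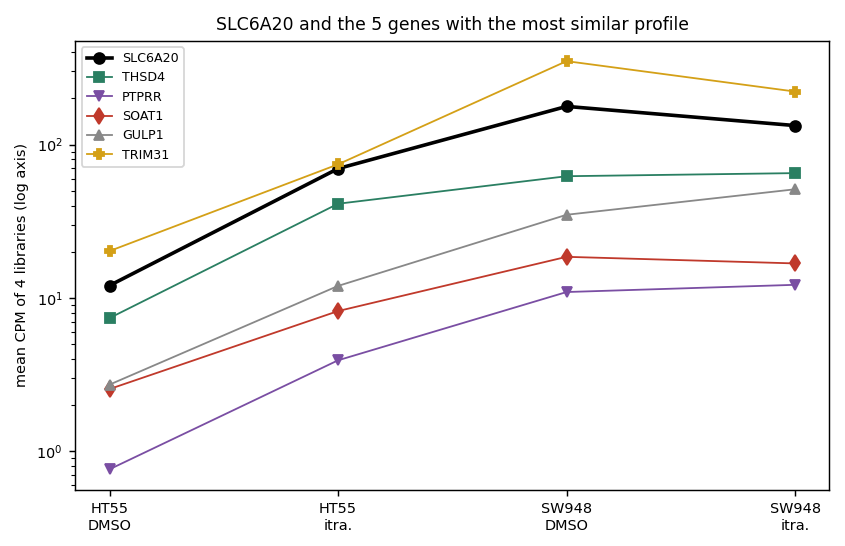
Mean level in CPM (log axis) of SLC6A20 and the 5 genes with the most similar profile, each over the 4 libraries of a group. All 6 genes were lowest in HT55 DMSO and higher in HT55 itraconazole, and SLC6A20 went from 12.1 to 69.7 CPM between those groups.

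The question asked of the other 8 carriers was whether itraconazole changed them and whether the lines responded alike. In HT55, 4 of the 8 were called, with SLC3A2 higher and SLC1A4, SLC7A11 and SLC38A1 lower. Over all 12133 genes tested in HT55, 54.0% were called, 27.5% higher and 26.5% lower. In SW948, 6 of the 8 were called, with SLC3A2 higher and SLC1A4, SLC7A5, SLC7A6, SLC38A1 and SLC38A2 lower. Over all 12505 genes tested there, 80.2% were called, 38.9% higher and 41.3% lower, so neither share of called carriers exceeded that of all genes. The treated and control libraries did not overlap for 4 of the 8 in HT55, against 49.4% of all genes, and for 6 of the 8 in SW948, against 74.7%. The median log2 difference of the 8 was -0.02 in HT55, where that of all genes was -0.02, and -0.72 in SW948, where that of all genes was -0.02. With plain library totals in place of TMM the median of all genes moved by -0.16 in HT55 and -0.33 in SW948, and the share of called genes that were higher went from 51.0% to 32.6% in HT55 and from 48.5% to 31.5% in SW948.

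The difference between the responses was tested on all 16 libraries, as the response of SW948 minus that of HT55. It was called for 6 of the 8, positive for SLC3A2 and SLC7A11 and negative for SLC7A5, SLC7A6, SLC38A1 and SLC38A2. Among 13249 genes 53.9% were called, 24.8% positive and 29.1% negative, and with plain library totals the positive share of the calls went from 46.1% to 31.8% as the median moved by -0.19. These comparisons share libraries with each other and with those between the lines.

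**Figure D3:**
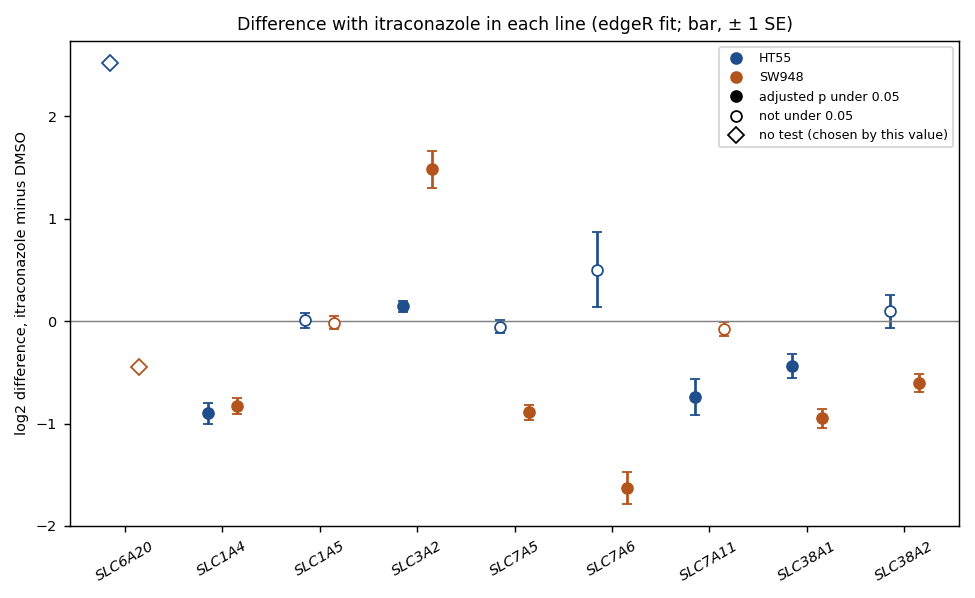
Log2 difference of itraconazole minus DMSO for 9 carriers in HT55 and SW948, with a bar for 1 SE on each side, filled points where the edgeR adjusted p was under 0.05 and open diamonds for SLC6A20, which has no test. SLC3A2 in SW948 was at 1.48, the other called values but SLC3A2 in HT55 lay below 0, and SLC1A5 lay at 0.01 and -0.02.

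SLC1A4 and SLC1A5 exchange small neutral amino acids, SLC1A4 (ASCT1) alanine, serine and cysteine, and SLC1A5 (ASCT2) also glutamine. SLC1A4 (ENSG00000115902, chromosome 2, 65215611 to 65250999, plus strand) was at 174.7, 169.5, 167.7 and 167.4 CPM in HT55 DMSO and at 100.7, 86.9, 104.5 and 72.3 CPM in HT55 itraconazole. The SW948 libraries held 74.3, 73.8, 74.8 and 79.7 CPM with DMSO and 42.4, 48.3, 45.1 and 38.8 CPM with itraconazole. Every treated library was below every control in both lines. The log2 difference of SLC1A4 was -0.90 ± 0.10 in HT55 and -0.83 ± 0.08 in SW948 (SE, edgeR adjusted p = 6.94e-05 and 1.92e-07). The responses differed by 0.10 ± 0.13 (SE, edgeR adjusted p = 0.539), which does not show that they were equal, and with plain library totals the difference was -0.10.

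SLC1A5 (ENSG00000105281, chromosome 19, 47278140 to 47291851, minus strand) had the highest level per length of the 9 in HT55, where the exon-length scaled mean was 435.1 ± 12.5 CPM per kb with DMSO. It was at 1457, 1417, 1506 and 1419 CPM in HT55 DMSO and at 1400, 1337, 1521 and 1591 CPM in HT55 itraconazole. In SW948 the range was 343.4 to 399.9 CPM with DMSO and 371.7 to 391.3 CPM with itraconazole. Treated and control libraries overlapped in both lines. The log2 difference was 0.01 ± 0.07 in HT55 and -0.02 ± 0.06 in SW948 (SE, edgeR adjusted p = 0.931 and 0.823), and with plain library totals it was -0.15 and, in SW948, -0.35, where it was called. The carrier was 1.94 lower in SW948 than in HT55 on the log2 scale with DMSO (fold 0.261, SE 0.05, edgeR adjusted p = 1.41e-21), the largest difference between the untreated lines among the 8 tested carriers.

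SLC3A2 (ENSG00000168003, chromosome 11, 62623476 to 62656352, plus strand), the heavy chain, was the one carrier of the 8 that rose in SW948. With DMSO its SW948 libraries held 329.4, 306.6, 316.6 and 332.3 CPM, and with itraconazole 556.4, 1076, 1248 and 793.1 CPM. All treated libraries were above all controls, but they were widely spread, with replicate 1 lowest and replicate 3 highest. The log2 difference was 1.48 ± 0.18 (SE, edgeR adjusted p = 3.83e-06, fold 2.80). In HT55 the controls held 482.4, 483.0, 481.6 and 493.0 CPM and the treated libraries 521.3, 542.3, 556.5 and 529.9 CPM. That is a small rise of 0.14 ± 0.06 (SE, edgeR adjusted p = 0.0461) with no overlap of the groups. The HT55 call was lost without DMSO replicate 1, 2, 3 or 4 or itraconazole replicate 2 or 4, with adjusted p from 0.0543 to 0.0927 and values from 0.14 to 0.16, and the value was -0.02 with plain library totals. The responses differed by 1.37 ± 0.21 (SE, edgeR adjusted p = 2.85e-05).

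The order of the lines for SLC3A2 turned with treatment. With DMSO, SW948 was below HT55 by 0.59 on the log2 scale (fold 0.664, SE 0.04, edgeR adjusted p = 8.99e-13) in non-overlapping groups. With itraconazole it was above by 0.78 (fold 1.71, SE 0.20, edgeR adjusted p = 0.00298), although replicate 1 of treated SW948, at 556.4 CPM, lay just under the highest treated HT55 library.

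SLC7A5 (LAT1, ENSG00000103257, chromosome 16, 87863629 to 87903113, minus strand) exchanges large neutral amino acids such as leucine for glutamine. In SW948 the controls held 430.2, 447.2, 426.4 and 445.9 CPM and the treated libraries 217.7, 259.2, 264.8 and 223.3 CPM. The groups did not overlap and SLC7A5 fell by 0.89 (SE 0.07, edgeR adjusted p = 7.62e-08). In HT55 it was between 1002 and 1053 CPM in controls and between 919.1 and 1054 CPM in treated libraries, which overlapped. The HT55 log2 difference was -0.05 ± 0.06 (SE, edgeR adjusted p = 0.501), and -0.22 with plain library totals, where it was called. The responses differed by -0.81 ± 0.10 (SE, edgeR adjusted p = 2.18e-06).

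SLC7A6 (y+LAT2, ENSG00000103064, chromosome 16, 68298419 to 68335726, plus strand) exchanges cationic for neutral amino acids. The SW948 controls held 56.3, 59.3, 79.8 and 50.3 CPM and the treated libraries 20.7, 21.4, 24.4 and 14.7 CPM. It fell by 1.63 there (SE 0.15, edgeR adjusted p = 2.78e-07), the largest fall of a member in either line. In HT55 the controls held 139.1, 127.6, 143.3 and 128.8 CPM, and the treated libraries 91.3, 91.5, 342.7 and 236.7 CPM. Treated replicates 1 and 2 were below every control and replicates 3 and 4 above every control, and the difference of 0.50 ± 0.37 did not pass (SE, edgeR adjusted p = 0.27). Without treated replicate 3 it was 0.06 and without replicate 1 it was 0.73, both not called. Alignments at several places made up 27.3% and 27.9% of the tally in treated HT55 replicates 1 and 2 and 24.1% and 24.8% in replicates 3 and 4, and their part in the split was not tested. The responses differed by -2.10 ± 0.45 (SE, edgeR adjusted p = 0.000558), with values from -2.34 to -1.66 when any one library was left out.

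Exons of SLC7A6 share 44.4% of their bases with SLC7A6OS on the opposite strand, and the counting strand is not given in the sources used here. SLC7A6OS itself was at 27.3 ± 1.90 and 37.8 ± 11.7 CPM in HT55 DMSO and itraconazole, and at 24.5 ± 2.19 and 46.5 ± 1.59 CPM in SW948 DMSO and itraconazole (SD, n = 4). Its mean was thus higher where SLC7A6 fell, in treated SW948.

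SLC7A11 (xCT, ENSG00000151012, chromosome 4, 139085251 to 139163503, minus strand) takes up cystine in exchange for glutamate. In HT55 it was at 143.0, 134.3, 130.8 and 134.6 CPM with DMSO and at 75.8, 52.2, 111.2 and 85.9 CPM with itraconazole. The treated libraries lay below all controls, with replicate 3 nearest to them, and SLC7A11 fell by 0.74 (SE 0.17, edgeR adjusted p = 0.0049). SW948 held between 162.1 and 186.7 CPM in controls and between 158.6 and 180.2 CPM in treated libraries. The groups overlapped and the difference was -0.08 ± 0.07 (SE, edgeR adjusted p = 0.313), or -0.41, and called, with plain library totals. The responses differed by 0.69 ± 0.19 (SE, edgeR adjusted p = 0.00495), which was 0.48 and not called with plain library totals (edgeR adjusted p = 0.0633). The antisense gene SLC7A11-AS1, which shares 8.97% of the exon bases, had at most 5 counts in a group.

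The 5 genes most like SLC7A11 over the 16 libraries were HNRNPH1, SRSF6, SAAL1, PPP1R16A and C6orf62, at distances from 0.121 to 0.179. HNRNPH1 and SRSF6 encode splicing factors. HNRNPH1 had means of 325.0, 181.5, 411.6 and 363.6 CPM in HT55 DMSO, HT55 itraconazole, SW948 DMSO and SW948 itraconazole, and none of the 5 is an amino acid carrier.

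**Figure D4:**
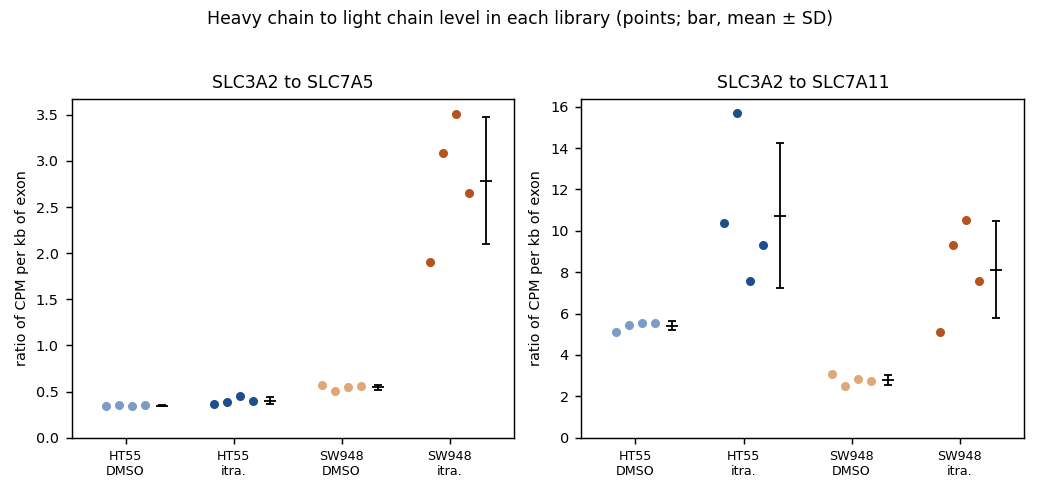
Ratio of SLC3A2 to SLC7A5 and to SLC7A11, each level in CPM per kb of exon, in the 4 libraries of each group, with a bar for the mean ± SD. The ratio to SLC7A5 was between 1.90 and 3.51 in treated SW948 and between 0.342 and 0.571 in both DMSO groups.

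Since light chains reach the surface with the heavy chain, their transcripts were also set against each other within each library, per kb of exon. The ratio of SLC3A2 to SLC7A5 was 0.348 ± 0.00779 in HT55 DMSO and 0.401 ± 0.0354 in HT55 itraconazole (SD, n = 4). In SW948 it was 0.571, 0.511, 0.553 and 0.555 with DMSO and 1.90, 3.09, 3.51 and 2.65 with itraconazole. Per kb, the heavy chain was thus below SLC7A5 in every library of the other 3 groups and above it in every treated SW948 library. The length used merges all annotated exons, 6392 bases for SLC3A2 and 4764 for SLC7A5. Which of the pair is higher depends on these lengths, whereas the change of the ratio within a line does not. The ratio to SLC7A11 was 5.40 ± 0.214 and 10.7 ± 3.50 in HT55 DMSO and itraconazole and 2.79 ± 0.244 and 8.11 ± 2.32 in SW948 DMSO and itraconazole. These ratios combine the values above and have no test of their own.

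SLC38A1 and SLC38A2 (SNAT1 and SNAT2) import glutamine and other small neutral amino acids with sodium, and lie near each other on chromosome 12. SLC38A1 (ENSG00000111371, 46576846 to 46663800, minus strand) was at 236.5, 231.2, 215.3 and 225.2 CPM in HT55 DMSO and at 164.0, 128.1, 198.6 and 180.6 CPM in HT55 itraconazole. SW948 had 208.5, 228.9, 202.1 and 208.2 CPM with DMSO and 100.5, 121.9, 130.2 and 97.4 CPM with itraconazole. Treated libraries were below controls without overlap in both lines. The SLC38A1 difference was -0.44 ± 0.11 in HT55 and -0.95 ± 0.09 in SW948 (SE, edgeR adjusted p = 0.00812 and 3.29e-07). The fall was larger in SW948 by 0.48 (log2 difference of responses -0.48, SE 0.15, edgeR adjusted p = 0.0126).

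SLC38A2 (ENSG00000134294, 46751971 to 46766556, minus strand) was at 510.6, 565.7, 527.8 and 528.2 CPM in SW948 DMSO and at 323.3, 374.4, 425.6 and 313.9 CPM in SW948 itraconazole. It fell by 0.60 (SE 0.09, edgeR adjusted p = 2.83e-05) with no overlap. In HT55 the controls held 508.1, 494.3, 480.1 and 501.9 CPM and the treated libraries 432.0, 385.5, 659.5 and 648.9 CPM. As for SLC7A6, treated replicates 1 and 2 were below all controls and replicates 3 and 4 above. The HT55 difference was 0.10 ± 0.16 (SE, edgeR adjusted p = 0.628) and was -0.01 without treated replicate 3 or replicate 4. The responses differed by -0.67 ± 0.19 (SE, edgeR adjusted p = 0.00609).

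Between the lines, all 8 tested carriers differed both with DMSO and with itraconazole. With DMSO, 84.2% of 12820 genes were called, 42.6% higher in SW948 and 41.6% lower, and 2 of the 8 carriers were higher and 6 lower. With itraconazole, 76.6% of 12353 genes were called, 37.8% higher and 38.8% lower, and the carriers again divided into 2 higher and 6 lower. With plain library totals the share of higher calls with DMSO went from 50.6% to 60.2% as the median moved by 0.19, and SLC38A1 passed from the lower to the higher carriers. SLC7A11 was higher in SW948 by 0.37 with DMSO and 1.06 with itraconazole (SE 0.05 and 0.18, edgeR adjusted p = 1.32e-07 and 0.000153). SLC7A6 was lower in SW948 by 1.13 and 3.23 (log2 differences -1.13 and -3.23, SE 0.08 and 0.41, edgeR adjusted p = 5.21e-12 and 1.38e-05).

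For the sodium-coupled pair the differences between untreated lines were small. SLC38A1 was lower in SW948 by a log2 difference of -0.10 ± 0.04 (SE, edgeR adjusted p = 0.0469) with overlapping groups. That call was lost without HT55 DMSO replicate 1, 2 or 4 or SW948 DMSO replicate 1, 3 or 4, with values from -0.11 to -0.07. With plain library totals the value turned to 0.10 and was called in the opposite direction. SLC38A2 was higher by 0.11 ± 0.04 (SE, edgeR adjusted p = 0.0185), a call lost without HT55 DMSO replicate 2 (0.10) or replicate 3 (0.09), and was 0.30 and called with plain library totals.

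Set per kb of exon, SLC1A5 and SLC7A5 were the highest of the 9 carriers in HT55, and SLC6A20 was the lowest there with DMSO. Such orders between genes depend on the length used, which merges all annotated exons of a gene. With itraconazole SLC6A20, at 7.64 ± 1.65 CPM per kb, and SLC7A11, at 8.42 ± 2.53, lay within each other's spread (SD, n = 4). In HT55 DMSO the mean was 435.1 for SLC1A5, 217.8 for SLC7A5, 76.2 for SLC38A2, 75.9 for SLC3A2 and 1.32 for SLC6A20, all in CPM per kb. SLC38A2 and SLC3A2 did not differ there beyond their SDs of 1.85 and 0.843. In SW948 itraconazole the order began with SLC3A2 at 143.7 ± 47.8 CPM per kb and SLC1A5 at 114.4 ± 2.65, which lie within that spread, and ended with SLC7A6 at 2.68 ± 0.538. SLC6A20, at 19.4 ± 2.73 CPM per kb in SW948 DMSO, was then level with SLC38A1 at 21.2 ± 1.17 and SLC7A11 at 18.1 ± 1.21.

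Other genes of amino acid uptake and use were counted from lists drawn up from general knowledge with earlier results of these data known. All counts below are of genes called, and beside them stand the 54.0% of all genes called in HT55 (27.5% higher and 26.5% lower) and the 80.2% in SW948 (38.9% higher and 41.3% lower). Of 34 other plasma membrane amino acid carriers, 15 were abundant enough to test in each line. There were 4 rises and 3 falls among them in HT55, a smaller share than of all genes, and 3 rises and 11 falls in SW948. With plain library totals the SW948 count was 1 up and 11 down. In HT55 SLC1A7 reached the level of the filter only in the treated group and SLC38A6 in all libraries only with DMSO. In SW948 SLC38A4 likewise reached it in all libraries only with DMSO. SLC43A1, a carrier of large neutral amino acids, had 80.0, 74.1, 77.3 and 88.3 CPM in SW948 DMSO and 15.3, 11.1, 10.3 and 9.04 CPM in SW948 itraconazole, a fall of 2.82 (log2 difference -2.82, SE 0.13, edgeR adjusted p = 2.22e-10). SLC38A4 in SW948 went from 14.5 ± 2.53 to 1.71 ± 0.766 CPM (SD, n = 4; log2 difference -3.07). It is counted among the falls, but because of the filter no test of it is given. SLC7A7, the other light chain for cationic amino acids, rose in SW948 from 4.96 ± 1.46 to 15.4 ± 2.50 CPM (log2 difference 1.60, edgeR adjusted p = 1.76e-06).

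SLC43A2, related to SLC43A1, fell in HT55 from 58.3 ± 1.49 to 18.5 ± 3.04 CPM (SD, n = 4; log2 difference -1.66, edgeR adjusted p = 3.69e-06). SLC38A3, a glutamine carrier, went from 8.74 ± 1.18 to 2.75 ± 0.999 CPM there (log2 difference -1.68, edgeR adjusted p = 0.000222). SLC3A1, the heavy chain of the cystine and dibasic amino acid carrier, had 19.2, 20.6, 17.1 and 18.3 CPM in HT55 DMSO and 176.6, 194.8, 53.5 and 157.8 CPM in HT55 itraconazole, with replicate 3 far below the others. It rose by 2.95 in HT55 (SE 0.34, edgeR adjusted p = 6.95e-05) and by 0.92 in SW948 (SE 0.25, edgeR adjusted p = 0.00382). SLC1A7, a glutamate carrier, had 5 to 8 counts in the HT55 controls and 23 to 37 in the treated libraries, or 0.702 ± 0.102 and 3.53 ± 0.991 CPM (SD, n = 4), and entered the test only through its treated libraries.

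**Figure D5:**
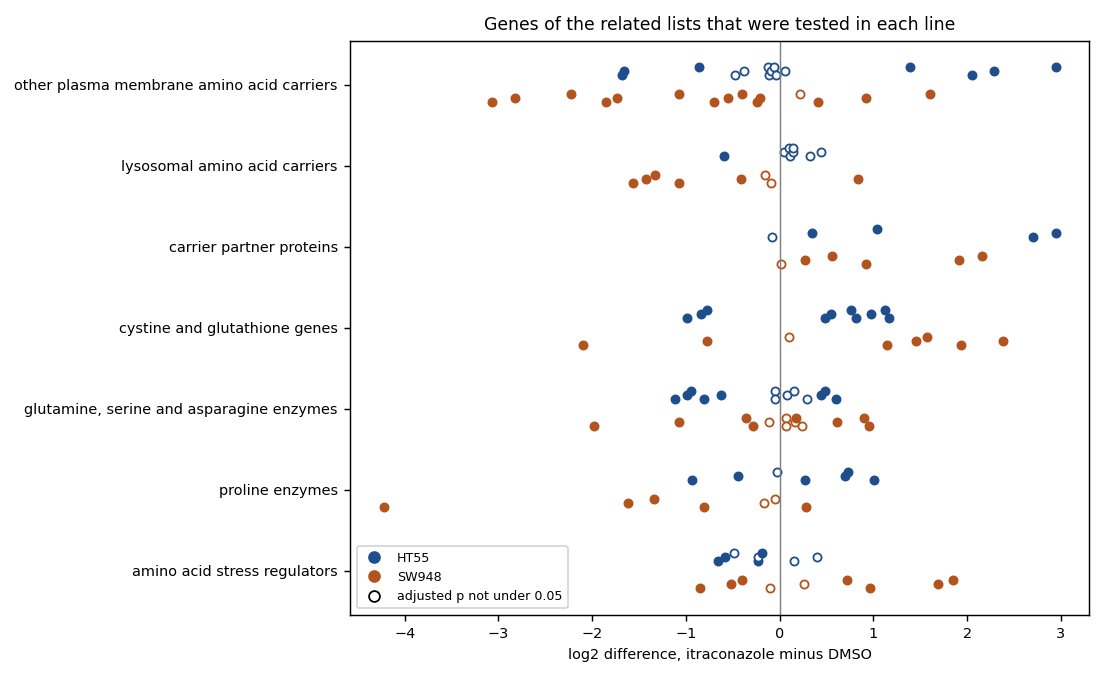
Log2 difference of itraconazole minus DMSO (edgeR) for each tested gene of 7 related lists, in HT55 and SW948, with open points where the adjusted p was not under 0.05. In SW948, 11 of 15 other plasma membrane carriers lie below 0 and were called, and the lowest point is PYCR3 at -4.22. PYCR3, and SLC38A4 among the 11, reached the level of the filter in all SW948 libraries of a group only with DMSO.

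The next list held 6 genes for proteins that pair with carriers, of which SLC3A1 also stands in the list of other carriers. In HT55 4 of 5 tested rose and none fell, and in SW948 5 of 6 rose and none fell, against 54.0% and 80.2% of all genes called. With plain library totals 3 of 6 rose in SW948, and 4 rose and 1 fell in HT55. ANPEP, an aminopeptidase, is counted among the rises in both lines, but all 4 libraries of a group reached the level of the filter only with treatment, so no test of it is given. It had 4 to 6 counts in the SW948 controls and 13 to 16 in the treated libraries, or 0.419 ± 0.0368 and 1.66 ± 0.126 CPM (SD, n = 4).

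Of the 10 cystine and glutathione genes, HT55 had 7 up and 3 down, all called where 54.0% of all genes were, and SW948 had 5 up and 2 down of 8 tested, where 80.2% of all genes were called. TXNRD1, thioredoxin reductase and a known NRF2 target, had 162.7, 164.0, 165.3 and 161.9 CPM in HT55 DMSO and 371.3, 473.5, 236.3 and 396.3 CPM in HT55 itraconazole. In SW948 it had 196.7, 210.6, 209.4 and 197.6 CPM with DMSO and 799.0, 1240, 1385 and 927.9 CPM with itraconazole. TXNRD1 rose by 1.17 and 2.39 (SE 0.16 and 0.14, edgeR adjusted p = 0.00024 and 3e-09). Its treated SW948 libraries stood in the same order as those of SLC3A2, replicates 3, 2, 4 and 1 from the highest. The epithelium markers KRT8 and KRT19 shared that order, while CDH17 and GPA33 had the reverse. GCLM, of the first enzyme of glutathione synthesis, rose in SW948 by 1.93 and GPX4 rose in HT55 by 1.13 (edgeR adjusted p = 2.59e-08 and 6.17e-05). CHAC1, which degrades glutathione, had log2 differences of -0.84 and -2.10 in HT55 and SW948 (by edgeR, adjusted p = 0.000383 and 4.87e-09), and GSS, which completes its synthesis, had -0.98 and -0.78 (edgeR adjusted p = 1.17e-05 and 1.36e-06). SLC7A11, which supplies this pathway, was called lower in HT55 and was not called in SW948.

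Of 9 amino acid stress regulators, HT55 had 4 down and none up of 8 tested, and SW948 had 4 up and 3 down, close to the 54.0% and 80.2% of all genes called. ATF4 was at 255.7, 253.3, 256.8 and 262.5 CPM in HT55 DMSO and 216.6, 252.0, 209.4 and 200.7 CPM in HT55 itraconazole. SW948 held 272.7, 242.1, 241.2 and 278.4 CPM with DMSO and 396.2, 583.1, 595.8 and 486.2 CPM with itraconazole. Its log2 difference was -0.23 ± 0.07 in HT55 and 0.96 ± 0.11 in SW948 (SE, edgeR adjusted p = 0.0231 and 2.51e-06), and the responses differed by 1.22 ± 0.15 (SE, edgeR adjusted p = 1.49e-06). ATF3 and NUPR1, other stress factors, rose in SW948 by 1.69 and 1.85 (edgeR adjusted p = 9.12e-07 and 4.84e-07), NUPR1 from only 2.68 to 9.95 CPM. TRIB3 and SESN2, which are known ATF4 targets, fell in both lines, by log2 differences of -0.65 and -0.58 in HT55 and -0.52 and -0.85 in SW948 (edgeR adjusted p = 4.42e-05, 0.000816, 0.00101 and 3.82e-05). Of the 8 tested members, SLC3A2 was called higher in SW948, where ATF4 RNA was higher, and 5 were called lower.

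Of 13 glutamine, serine and asparagine enzymes, HT55 had 3 up and 5 down, and SW948 had 4 up and 4 down (3 up and 8 down with plain library totals), beside 54.0% and 80.2% of all genes called. ASNS, asparagine synthetase, had 551.2, 577.1, 565.9 and 597.4 CPM in HT55 DMSO and 291.0, 238.3, 301.4 and 227.7 CPM in HT55 itraconazole, and fell by 1.12 (SE 0.09, edgeR adjusted p = 1.29e-05). The SW948 level lay between 404.6 and 441.0 CPM in controls and between 384.5 and 486.8 CPM in treated libraries, a difference of 0.07 ± 0.08 that did not pass (SE, edgeR adjusted p = 0.405). The ASNS responses differed by 1.22 ± 0.13 (SE, edgeR adjusted p = 2.56e-07). PHGDH, the first enzyme of serine synthesis, fell by 0.99 in HT55, and PSPH and PSAT1, the later enzymes, had SW948 values of -1.98 and -1.07 (in edgeR, adjusted p = 0.00033, 1.45e-10 and 3.18e-09). GLUL, glutamine synthetase, rose in HT55 by 0.60 (edgeR adjusted p = 0.00019), and GLUD1 and GLS2 rose in SW948 by 0.95 and 0.90 (edgeR adjusted p = 4.26e-07 and 0.000191).

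Proline is the amino acid for which SLC6A20 is best known. Of 7 proline enzymes, HT55 had 4 up and 2 down, and SW948 had 1 up and 4 down (2 up and 2 down, and 0 up and 6 down, with plain library totals). The share of all genes called was 54.0% in HT55 and 80.2% in SW948. ALDH18A1, which starts proline synthesis from glutamate, was at 224.9, 217.9, 220.6 and 217.6 CPM in HT55 DMSO and 350.4, 367.8, 531.1 and 530.2 CPM in HT55 itraconazole, a rise of 1.01 (SE 0.13, edgeR adjusted p = 0.000175). In SW948 its value was 0.28 (edgeR adjusted p = 0.00146), or -0.05 with plain library totals. PEPD, which cleaves dipeptides with proline, rose in HT55 by 0.73 (edgeR adjusted p = 0.000144). PYCR3, which completes proline synthesis, had 21.6, 18.3, 22.8 and 22.8 CPM in SW948 DMSO and 1.002, 1.42, 1.27 and 1.02 CPM in SW948 itraconazole, with 9 to 11 counts in each treated library. It is counted among the SW948 falls (log2 difference -4.22, fold 0.0536). In SW948 all 4 libraries of a group reached the level of the filter only with DMSO, so no test of PYCR3 is given there. It fell by 0.94 in HT55 (edgeR adjusted p = 0.00823). In SW948 PRODH, which degrades proline, fell by 1.62 from 11.2 to 3.68 CPM (edgeR adjusted p = 2.46e-06).

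Carriers of the lysosomal membrane, which return amino acids from digested protein, were the last list. With 8 of 10 tested, HT55 had none up and 1 down, and SW948 had 1 up and 5 down (1 up and 7 down with plain library totals). Of all genes, 54.0% were called in HT55 and 80.2% in SW948. CTNS, the cystine carrier of the lysosome, fell in SW948 from 16.3 ± 2.46 to 5.60 ± 0.679 CPM (SD, n = 4; log2 difference -1.57, edgeR adjusted p = 1.66e-07). SLC38A7, a glutamine carrier, fell by 1.43 in the same line (edgeR adjusted p = 1.8e-06), and SLC15A4, a peptide and histidine carrier, rose by 0.83 (edgeR adjusted p = 9.63e-06). In HT55, SLC38A9, an arginine sensor, fell by 0.60 (edgeR adjusted p = 0.0144). The near-identical copy SLC7A5P2 had 1 count over all 16 libraries, and SLC7A5 levels leave out any read that also aligns to a copy.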

How the data were processed

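RNA of HT55 and SW948 was sequenced by the authors from TruSeq libraries as single-end reads of 50 bp. The submitters' processing notes name TopHat, HTSeq, DESeq and hg19, with no versions. The authors deposited 1 file of raw counts per gene for each library, with no normalisation, 54127 identifiers and 5 totals of reads outside genes, which were left out of library sizes and tests. Symbols were found for 47098 identifiers (97.8% of the counts). Gene coordinates and exon lengths came from GENCODE release 44 mapped to GRCh37, and promoters from RefSeq on GRCh38.p14. At 8269406 to 11110814 counts per library, spreads are over 4 replicates. The reads carried no molecular identifiers.

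Each line was fitted by itself with edgeR 4.0.16 in R 4.3.3 (TMM, filterByExpr, quasi-likelihood test, no covariate), and the interaction and the lines within a treatment were fitted likewise. Adjusted p-values follow Benjamini and Hochberg over all genes tested, and calls were made under 0.05. A standard error was derived from the log2 difference and its F statistic. The fit was tested on simulated data. Genes below the filter were given as counts.

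Members, lists and tests were chosen with earlier results of these data known. From each list, the 2 largest rises and the 2 largest falls among called genes were named for each line, with ATF4 and ASNS in both lines and the 5 genes most like SLC6A20 and SLC7A11, on log2 CPM with a prior count of 2, beside all members. Some genes that the rule names are not reported here. SLC7A6OS and SLC7A11-AS1 were chosen after their values were seen. Alternatives were DESeq2 size factors, plain library totals, the DESeq2 1.42.0 Wald test, no filter, at least 10 counts in every library, a replicate block, leaving out each library, leaving out the 20 top genes with the mitochondrial genes, an adjusted p under 0.01, 1 fit on all 16 libraries and, for likeness, a prior count of 0.5. The lists were also counted under the other scalings, which was added after seeing the data.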

Additional observations from a re-analysis of the deposited data

Results flagged for a closer look

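The responses of 6 carriers differed between the lines in the edgeR interaction test, as the SW948 response minus that of HT55 on the log2 scale. The values were 1.37 for SLC3A2, -0.81 for SLC7A5, -2.10 for SLC7A6, 0.69 for SLC7A11, -0.48 for SLC38A1 and -0.67 for SLC38A2. The SLC7A6 value rests on treated HT55 libraries that lay on both sides of their controls.

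A single library stood far from the other 3 of its group in 3 of 36 groups examined, by the gap to its nearest neighbour as a share of the range (above Dixon's 95% critical value). These were SLC1A4 in SW948 DMSO replicate 4 (0.838), SLC3A2 in HT55 DMSO replicate 4 (0.876) and SLC7A5 in HT55 DMSO replicate 2 (0.879). Chance flags about 1 in 20 groups, and all 3 were control groups with small ranges.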

How the results depend on the processing

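The counts of called genes and of called carriers stayed within 1.5 times their main values under each alternative run. Called SLC1A4, SLC3A2, SLC7A5, SLC7A6, SLC38A1 and SLC38A2 in SW948 and SLC1A4, SLC7A11 and SLC38A1 in HT55 stayed called in the same direction. The HT55 call of SLC3A2 was lost with plain library totals, no filter, at least 10 counts, the replicate block (0.14, adjusted p = 0.12) and 1 fit on all 16 libraries. The SLC38A1 call between the lines in DMSO was lost with no filter, at least 10 counts and the DESeq2 Wald test, and the SLC7A11 interaction call with plain library totals. Between the lines in DMSO, plain library totals gave an SLC38A1 call in the opposite direction.

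Signs turned for small values. With plain library totals the log2 difference was -0.15 for SLC1A5, -0.0203 for SLC3A2 and -0.0593 for SLC38A2 in HT55, 0.10 for SLC38A1 between the lines in DMSO, and -0.10 for SLC1A4 and -0.19 for SLC1A5 for the interaction. SLC1A5 was -0.0024 with no filter and -0.0017 with at least 10 counts in HT55, 0.0088 with DESeq2 size factors, 0.0085 with the DESeq2 Wald test and 0.017 with 1 fit on all 16 libraries in SW948, and -0.0027 with no filter for the interaction. Leaving out 1 library gave SLC1A5 values from -0.0308 to 0.0505 in HT55, from -0.05998 to 0.00557 in SW948 and from -0.0402 to 0.0363 for the interaction, SLC38A2 values from -0.0140 to 0.224 in HT55, and SLC1A4 values from -0.00568 to 0.163 for the interaction. The cause was not tested.

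Same-numbered libraries deviated together little (correlations from -0.02 to 0.12 in HT55 and SW948). The match was closest with the same number for replicate 3 in HT55 and for replicates 3 and 4 in SW948. Such correlations cannot settle whether the numbers pair the libraries. With the replicate block 6300 genes were called in HT55, 9973 in SW948 and 7037 for the interaction, against 6553, 10030 and 7141, and no other carrier's call changed. Depth limits genes of a few counts per library, most of which were not tested, while ANPEP and SLC1A7 entered the test through their treated groups. In SW948, PYCR3 and SLC38A4 reached the level of the filter in all libraries of a group only with DMSO.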

Other observations

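Treated HT55 libraries divided in the same way for several genes. Replicates 3 and 4 held 342.7 and 236.7 CPM of SLC7A6, 659.5 and 648.9 CPM of SLC38A2 and 531.1 and 530.2 CPM of ALDH18A1, and replicates 1 and 2 held 91.3 and 91.5, 432.0 and 385.5, and 350.4 and 367.8 CPM. SLC38A4, a carrier of neutral amino acids, was at 112.0, 83.0, 172.5 and 133.8 CPM in replicates 1 to 4. DDIT3 was at 72.8, 71.5, 37.1 and 40.9 CPM, with the opposite division. These genes were picked after their values were seen.

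Treated SW948 libraries stood in 1 order, replicates 3, 2, 4 and 1 from the highest, for SLC3A2, TXNRD1, ATF4 and ATF3. ATF3 was at 262.5, 214.7, 168.4 and 119.4 CPM and DDIT3 at 221.9, 198.2, 148.1 and 98.9 CPM in that order. Of the colon epithelium markers, KRT8, KRT18, KRT19 and LGALS4 shared the order, and CDH17 and GPA33 stood in the reverse order. EPCAM, CDH1, VIL1 and CDX1 stood in neither. The order was thus not limited to carrier and stress genes, and the epithelium markers did not share it as a class. The TMM factors of these libraries ran the opposite way, at 0.8705, 0.8884, 0.9245 and 0.9695. What part the libraries as a whole had in the order was not tested. In replicates 3, 2, 4 and 1 SLC7A11 was at 180.2, 174.4, 158.6 and 164.0 CPM, a narrow range with replicate 4 and not replicate 1 lowest. These genes too were picked after their values were seen, and the likeness of order has no test.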
